A study of Mus musculus with 9 samples.

Results

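The ADAM, ADAMTS, MMP and TIMP genes are the metalloproteases that cut cell-surface and matrix proteins, and the inhibitors that hold them in check. They were taken from the gene list by symbol, as every gene named Adam, Adamts, Mmp or Timp followed by a number and at most 1 further letter, with no use of measured values. This gave 79 of the 46517 genes in the files: 33 Adam, 19 Adamts, 23 Mmp and 4 Timp genes. RNA was sequenced from duodenal organoids of wild-type C57BL/6 mice, which are 3D cultures grown from crypts of the upper small intestine. The organoids were broken down to single cells, transduced at 50 adenoviral particles per cell and harvested about 72 hours later, in 3 groups of 3 samples: Ad-GFP (green fluorescent protein, the control), Ad-hHIF2 and Ad-hHIF1. The last 2 vectors carry human HIF2 or HIF1, transcription factors of the response to low oxygen, with proline-to-alanine substitutions that keep them from being degraded. All groups shared a Matrigel bed, conditioned medium with Wnt3a, R-spondin 3 and noggin, a ROCK inhibitor, an inhibitor of the TGF-β receptor kinase and, after transduction, nicotinamide. By the study's methods, mouse duodenal organoids were kept under reduced oxygen. The expression was transient and driven by a virus. The study calls the sequenced Ad-GFP and Ad-hHIF2 samples biological replicates, without saying for this sequencing whether each culture came from its own mouse. P-values measure the spread between these samples.

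ADAM proteins sit in the plasma membrane and release the outer parts of other membrane proteins, among them Notch receptors, cadherins and the precursors of growth factors of the EGF family. ADAMTS proteins are secreted and cut proteoglycans or trim procollagen, MMPs break down matrix proteins either in solution or from an anchor in the membrane, and TIMPs block MMPs and some ADAM and ADAMTS enzymes by binding to the active site. In the small intestine, ADAM10 is known for the Notch signalling that keeps stem cells in the crypt, and MMP7 is known as the enzyme with which Paneth cells mature their defensins.

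The expected counts summed to between 21722618 and 51119041 per sample. Each sample's value is given in CPM (its count after TMM scaling of the library sizes), in the order of replicates 1, 3 and 4. The mouse gene Epas1, which encodes HIF2α and can take up reads of the human transgene, was at 604.3 to 757.5 CPM in Ad-hHIF2 samples and at 1.47 to 3.07 CPM in the other 6. Hif1a was at 299.3 to 319 CPM in Ad-hHIF1 samples and at 198 to 251 CPM in the others. Of 10 markers of intestinal epithelium, Krt8, Krt18, Krt19 and Cdh1 gave most of a sum of 3310 to 3830 CPM in every sample, whereas Epcam was at 1.42 to 3.80 CPM, Vil1 at 3.27 to 4.94 CPM and Cdx1 at 0 in all 9. In Ad-hHIF2 against Ad-GFP samples, Lgals4 (log2 -1.14, adjusted p = 6.16e-05, edgeR) and Epcam (log2 -0.81, adjusted p = 0.0472, edgeR) were lower. Cdh1 was higher (log2 0.53, adjusted p = 0.00313, edgeR), and the other markers tested did not pass. Ad-hHIF1 replicate 3 held the most reads on olfactory and vomeronasal receptor genes, best known from the sensory tissues of the nose, at 452 CPM over 1609 genes against 30.8 to 153 CPM in the other samples.

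Of the 79 genes, 35 were expressed, meaning that they passed edgeR's filterByExpr over the 9 samples (about 10 counts at the median depth in at least 3 of them). These were 11 of 33 Adam, 9 of 19 Adamts, 12 of 23 Mmp and 3 of 4 Timp genes. By role, 7 of 9 ADAM proteases of somatic tissues and 4 of 6 membrane-type MMPs were expressed, against 2 of 21 ADAM genes of the germ line, whose proteins mostly act on sperm. The other 44 reached at most 28 counts in any sample, 13 of them never exceeded 3 counts in a sample, and Mmp1b was at 0 throughout. Among those 44 were Mmp7, at no more than 17 counts, and the stromelysins Mmp3 (up to 10 counts) and Mmp10 (up to 12 counts). The Paneth cell markers that accompany Mmp7 in the crypt were at or near 0 too, with Defa17, Defa24 and Ang4 at 0 in every sample. Of the 79 genes, 62 had whole-number counts in all samples and 17 shared reads with other genes in at least 1, including Adam15, Adam17, Adam28, Mmp12, Mmp19, Mmp24 and, in part, Timp3.

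Levels of different genes were compared as CPM per kilobase of gene length. In Ad-GFP organoids, Adam9 (37.6 CPM per kilobase) and Adam15 (34.7) were the most abundant of the 4 families, followed by the inhibitor Timp2 (20.3), the membrane-type protease Mmp14 (14.0), Adam8 (11.3), Adam10 (7.12) and Mmp11 (7.05). Adam9 and Adam15 made up 38.1% and 35.1% of the summed ADAM level, Mmp14 made up 43.9% of the MMP level, Adamts10 38.4% of the ADAMTS level and Timp2 73.1% of the TIMP level. In each family 1 or 2 genes held most of the sum, and the rest spread over a wide lower range in the plot of levels. The summed ADAM level was 93.9 to 101 CPM per kilobase in Ad-GFP, 132 to 143 in Ad-hHIF2 and 103 to 107 in Ad-hHIF1 samples. The summed MMP level was 30.9 to 32.8 in Ad-GFP, 45.3 to 47.6 in Ad-hHIF2 and 29.4 to 31.7 in Ad-hHIF1 samples. For ADAMTS genes the sums were 6.83 to 7.37, 7.66 to 7.85 and 5.16 to 6.35, and for TIMP genes 26.4 to 29.1, 26.6 to 32.3 and 27.1 to 30.3. Ad-hHIF2 samples thus lay above both other groups in the summed ADAM, MMP and ADAMTS levels, and the TIMP sums overlapped. Few genes carried most of the ADAM and MMP rise, so these sums do not describe whole families. From Ad-GFP to Ad-hHIF2, mean CPM per kilobase went from 37.6 to 57.9 for Adam9, 7.12 to 19.0 for Adam10 and 14.0 to 27.3 for Mmp14.

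**Figure D1:**
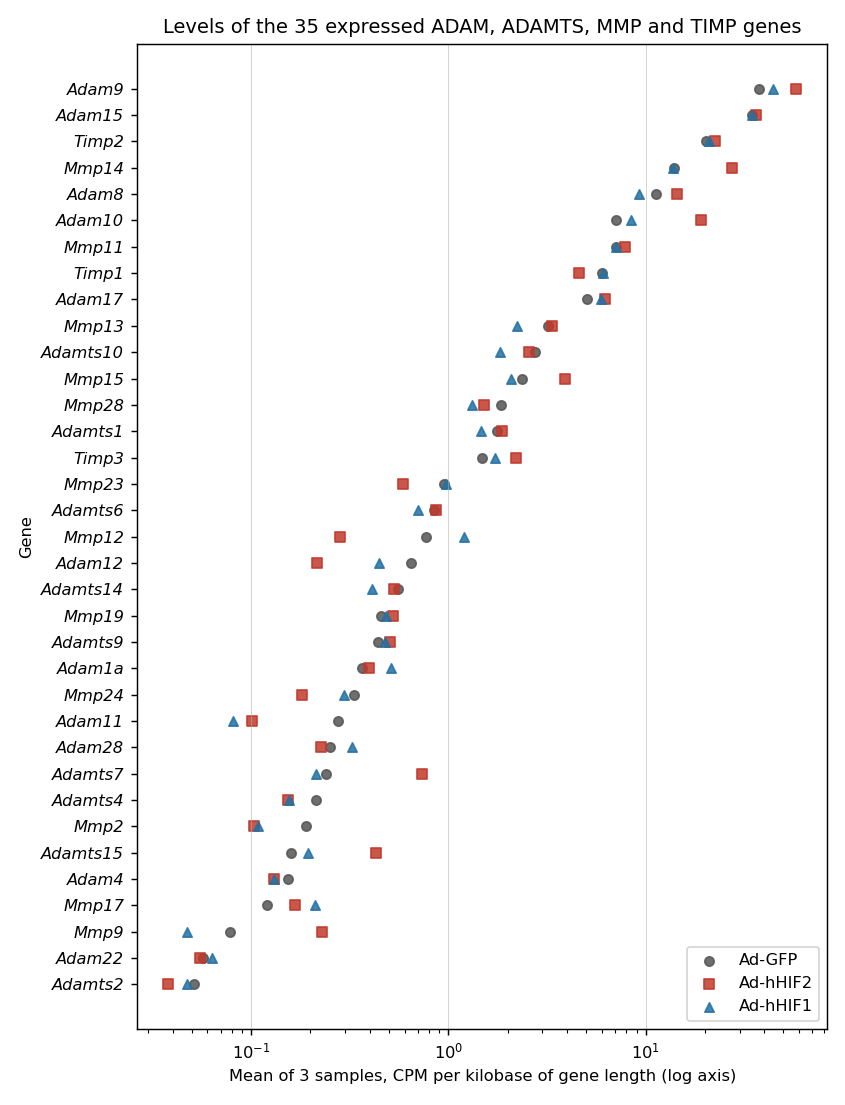
Mean level of each of the 35 expressed genes over the 3 samples of a group, in CPM per kilobase of gene length on a log axis, ordered by the Ad-GFP level (circles, Ad-GFP; squares, Ad-hHIF2; triangles, Ad-hHIF1). Adam9 and Adam15 lead in every group, Adam10 moves from 7.12 to 19.0 in Ad-hHIF2, and Mmp14 from 14.0 to 27.3.

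To ask which of these genes respond to HIF2, edgeR's quasi-likelihood test was run between Ad-hHIF2 and Ad-GFP samples on all 14987 genes that passed the filter. Calls needed 2-fold or more and an adjusted p (Benjamini-Hochberg) under 0.05. All 35 expressed genes were tested. Adam10, Adamts7 and Adamts15 were called higher, which is 3 of 35 against 2.9% of all genes tested, and Adam12 and Mmp12 were called lower, which is 2 of 35 against 3.83%, or 5 of 35 in either direction against 6.73%. Without the fold minimum, 9 were higher (15.9% of all genes) and 2 lower (13.6% of all genes), and without adjustment 14 passed p below 0.05 (41.2% of all genes). The 6 added by this rule were Adam8, Adam9, Adam17, Mmp14, Mmp15 and Timp3. The median log2 fold change of the 35 genes was 0.08, beside -0.01 for all genes tested. All 3 Ad-hHIF2 samples were above all 3 Ad-GFP samples for 10 of the 35 genes (23.4% of all genes) and below them for 5 (22.4% of all genes). The 10, like the 14 with an unadjusted p below 0.05, include Mmp9, which passed the count filter only through its Ad-hHIF2 samples. As each sample pools all cells of a culture, a change in the number of cells of a kind and a change in RNA per cell cannot be told apart in any of these values.

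**Figure D2:**
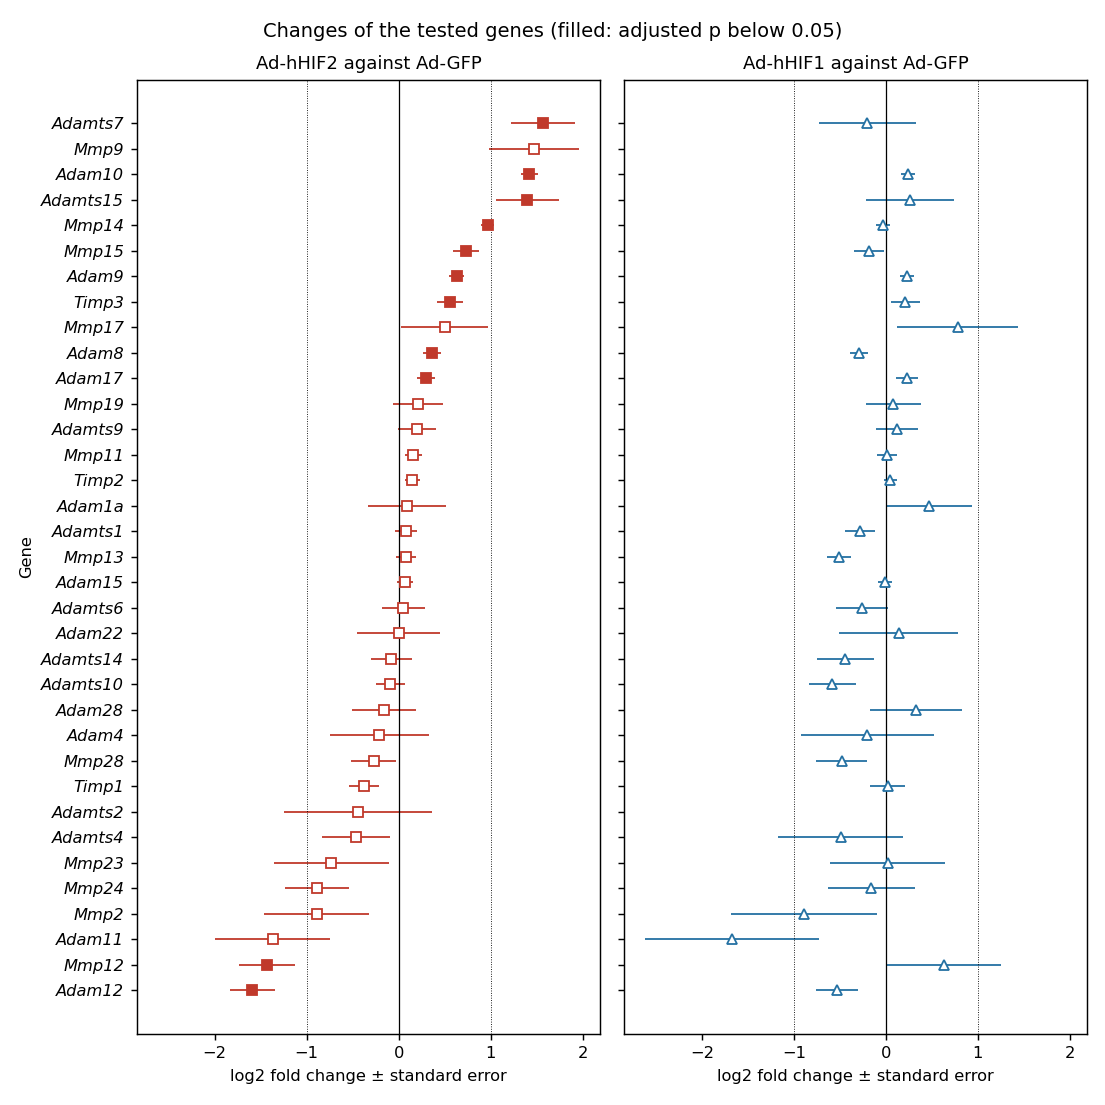
Log2 fold change with its standard error for the tested genes, Ad-hHIF2 against Ad-GFP on the left and Ad-hHIF1 against Ad-GFP on the right, in the same order of genes (filled symbols, adjusted p below 0.05; dotted lines, 2-fold). The 11 filled symbols, 9 to the right of 0 and 2 to the left, are all in the Ad-hHIF2 panel.

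Among the ADAM proteases of somatic tissues, 7 were tested in Ad-hHIF2 against Ad-GFP, of which 4 had a higher and 1 a lower level at an adjusted p below 0.05. Adam10, which cleaves Notch receptors, E-cadherin and many other surface proteins, lies at chr9:70678997-70780229 of GRCm38 on the plus strand. It was at 29.3, 33.9 and 32.6 CPM in Ad-GFP samples, 81.6, 80.1 and 94.3 CPM in Ad-hHIF2 samples and 38.3, 38.6 and 36.6 CPM in Ad-hHIF1 samples. The 3 groups did not overlap, with Ad-hHIF2 far above the other two. Adam10 was 2.68-fold higher in Ad-hHIF2 than in Ad-GFP organoids (log2 1.42, standard error 0.0932, adjusted p = 1.76e-05, edgeR). Its share of the summed ADAM level moved from 7.22% to 14.1%. No annotated gene overlaps it, its counts were whole in every sample, and it kept an adjusted p below 0.05 in all 14 alternative settings tried for this comparison, with log2 fold changes from 1.13 to 1.68.

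Adam9, a widely expressed membrane protease, was at 154, 151 and 140.3 CPM in Ad-GFP, 242, 229 and 214 CPM in Ad-hHIF2 and 167, 174 and 182 CPM in Ad-hHIF1 samples. The groups did not overlap, in the order Ad-GFP, Ad-hHIF1, Ad-hHIF2. Its increase in Ad-hHIF2 organoids was 1.54-fold (log2 0.63, standard error 0.0791, adjusted p = 0.000646, edgeR) and its adjusted p stayed below 0.05 in all 14 alternatives, with a call at 2-fold on log2(TPM + 0.1). Adam8, a protease best known from leukocytes and osteoclasts, was at 35.1, 31.7 and 37.8 CPM in Ad-GFP, 49.4, 44.8 and 40.0 CPM in Ad-hHIF2 and 30.9, 25.8 and 29.0 CPM in Ad-hHIF1 samples. Here the order was Ad-hHIF1, Ad-GFP, Ad-hHIF2, again with no overlap. Adam8 was 1.29-fold higher in Ad-hHIF2 than in Ad-GFP organoids (log2 0.36, standard error 0.0975, adjusted p = 0.0230, edgeR). The adjusted p rose above 0.05 without Ad-GFP replicate 1 (adjusted p = 0.0648), Ad-GFP replicate 3 (0.0923), Ad-hHIF2 replicate 1 (0.0666) or Ad-hHIF2 replicate 3 (0.0727), all by edgeR, with the summed olfactory and vomeronasal receptor reads as a covariate (0.158, edgeR) and with limma on log2(TPM + 1) (0.173) and log2(TPM + 0.1) (0.166), so that 7 of 14 alternatives passed. The 8 leukocyte markers summed to 13.1 to 17.8 CPM in Ad-GFP, 15.8 to 21.1 in Ad-hHIF2 and 10.6 to 13.8 in Ad-hHIF1 samples, mostly from Cd68. Csf1r, the receptor for the growth factor of macrophages, was higher in Ad-hHIF2 than in Ad-GFP organoids (0.301 to 1.92 CPM in Ad-GFP, 2.79 to 4.26 in Ad-hHIF2 and 0.346 to 0.459 in Ad-hHIF1, log2 1.46, adjusted p = 0.0475, edgeR) and than in Ad-hHIF1 organoids (log2 3.11, adjusted p = 0.00201, edgeR), and so was Cd68 against Ad-hHIF1 (log2 0.60, adjusted p = 0.0374, edgeR). Ptprc, the pan-leukocyte marker, went the other way, at 0.492 to 1.15 CPM in Ad-GFP and 0 to 0.0686 CPM in Ad-hHIF2 samples (log2 -3.92, adjusted p = 0.00472, edgeR), and the other markers of this list were not past the test or too low to be tested. The part of such cells in the level of Adam8 was not tested.

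Adam17, the enzyme that releases TNF and TGF-α from the cell surface, was at 24.5, 21.5 and 18.9 CPM in Ad-GFP, 26.4, 28.0 and 25.6 CPM in Ad-hHIF2 and 23.2, 27.7 and 25.3 CPM in Ad-hHIF1 samples. All Ad-hHIF2 values were above all Ad-GFP values, by a narrow margin, and Ad-hHIF1 overlapped both. The difference of 1.23-fold only just passed (log2 0.30, standard error 0.0991, adjusted p = 0.0499, edgeR) and was lost when any of 5 of the 6 samples was left out, the exception being Ad-GFP replicate 1, with adjusted p-values up to 0.159, and it passed in 4 of 14 alternatives in all. Adam17 shares part of its reads with other genes and overlaps Iah1 on the opposite strand. Adam15, a membrane protease of epithelium and endothelium, was at 54.9, 58.4 and 49.8 CPM in Ad-GFP, 61.9, 52.5 and 56.1 CPM in Ad-hHIF2 and 54.1, 53.3 and 54.8 CPM in Ad-hHIF1 samples. These groups overlapped fully and the fitted difference was near 0 (log2 0.07, standard error 0.0858, adjusted p = 0.599, edgeR). Adam28 was not past the test either, at a log2 fold change of -0.16.

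Adam12, a protease of mesenchymal and developing tissues, moved the other way. Its levels were 3.96, 3.27 and 3.65 CPM in Ad-GFP, 1.37, 0.922 and 1.33 CPM in Ad-hHIF2 and 2.30, 2.19 and 2.99 CPM in Ad-hHIF1 samples. The 3 groups were fully separate, with Ad-hHIF1 between the others. In Ad-hHIF2 organoids Adam12 fell to 0.332 of the Ad-GFP level (log2 -1.59, standard error 0.245, adjusted p = 0.00182, edgeR), and it passed in 12 of 14 alternatives, not with limma on log2(TPM + 1) (adjusted p = 0.387) or log2(TPM + 0.1) (0.340). The 10 fibroblast markers, none of them at 0 in all samples, summed to 13.7 to 20.4 CPM in Ad-GFP, 11.1 to 13.9 in Ad-hHIF2 and 12 to 21.3 in Ad-hHIF1 samples. None of those tested between Ad-hHIF2 and Ad-GFP passed, with Lum at 0.191 to 0.350 CPM in Ad-GFP and 0 to 0.0589 CPM in Ad-hHIF2 samples, too low to be tested. Their part in the level of Adam12 was not tested. Adam11 and Adam22, neuronal ADAM proteins without protease activity, were at log2 -1.37 (standard error 0.625, adjusted p = 0.133, edgeR) and log2 0.00. Adam1a and Adam4, both of the germ line group, were at 0.09 and -0.21, so that no ADAM gene outside the somatic proteases passed.

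The ADAMTS genes were low throughout, and 2 of 9 were called, both higher in Ad-hHIF2 organoids. Adamts7, which degrades cartilage oligomeric matrix protein, was at 1.5, 0.915 and 0.500 CPM in Ad-GFP, 2.84, 2.98 and 3.14 CPM in Ad-hHIF2 and 0.611, 1.27 and 0.716 CPM in Ad-hHIF1 samples. Its Ad-hHIF2 values were close together and above all other samples. It was 2.97-fold higher in Ad-hHIF2 than in Ad-GFP organoids (log2 1.57, standard error 0.351, adjusted p = 0.0107, edgeR), and its adjusted p stayed below 0.05 in all 14 alternatives, although it came to less than 2-fold, and so was not called, with limma on log2(TPM + 1) (log2 0.12) and on log2(TPM + 0.1) (log2 0.76). Adamts7 lies at chr9:90163069-90208071 of GRCm38 on the plus strand and overlaps Tbc1d2b on the other strand, and the sources used here do not state whether reads were counted by strand. Tbc1d2b itself was at 5.49 to 8.35 CPM in Ad-GFP and 5.47 to 6.36 CPM in Ad-hHIF2 samples. The part of its reads in the level of Adamts7 was not tested. Adamts15, a proteoglycanase that cuts aggrecan and versican, was at 1.42, 0.804 and 0.600 CPM in Ad-GFP, 2.56, 2.26 and 2.81 CPM in Ad-hHIF2 and 0.815, 1.58 and 1.05 CPM in Ad-hHIF1 samples. Again the Ad-hHIF2 samples were above all 6 others. The difference from Ad-GFP was 2.64-fold (log2 1.40, standard error 0.338, adjusted p = 0.0151, edgeR), and the call was lost without Ad-GFP replicate 3 (adjusted p = 0.0586) or without Ad-hHIF2 replicate 4 (adjusted p = 0.0529), and on both TPM scales, where the fold was under 2 (log2 0.08 and 0.55).

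The more abundant ADAMTS genes did not pass the test. Adamts10, a protease of fibrillin microfibrils, was at log2 -0.09 (standard error 0.157, adjusted p = 0.717, edgeR). Adamts1, another proteoglycanase, was at 6.80, 7.12 and 8.25 CPM in Ad-GFP and 7.73, 7.28 and 8.31 CPM in Ad-hHIF2 samples, with groups that overlapped (log2 0.08). The other proteoglycanases Adamts9 and Adamts4 had log2 fold changes of 0.20 and -0.46, and the procollagen N-proteinases Adamts14 and Adamts2 had -0.08 and -0.44, none of them past the test. Shares of the summed ADAMTS level moved from 3.40% to 9.46% for Adamts7 and from 2.25% to 5.52% for Adamts15.

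**Figure D3:**
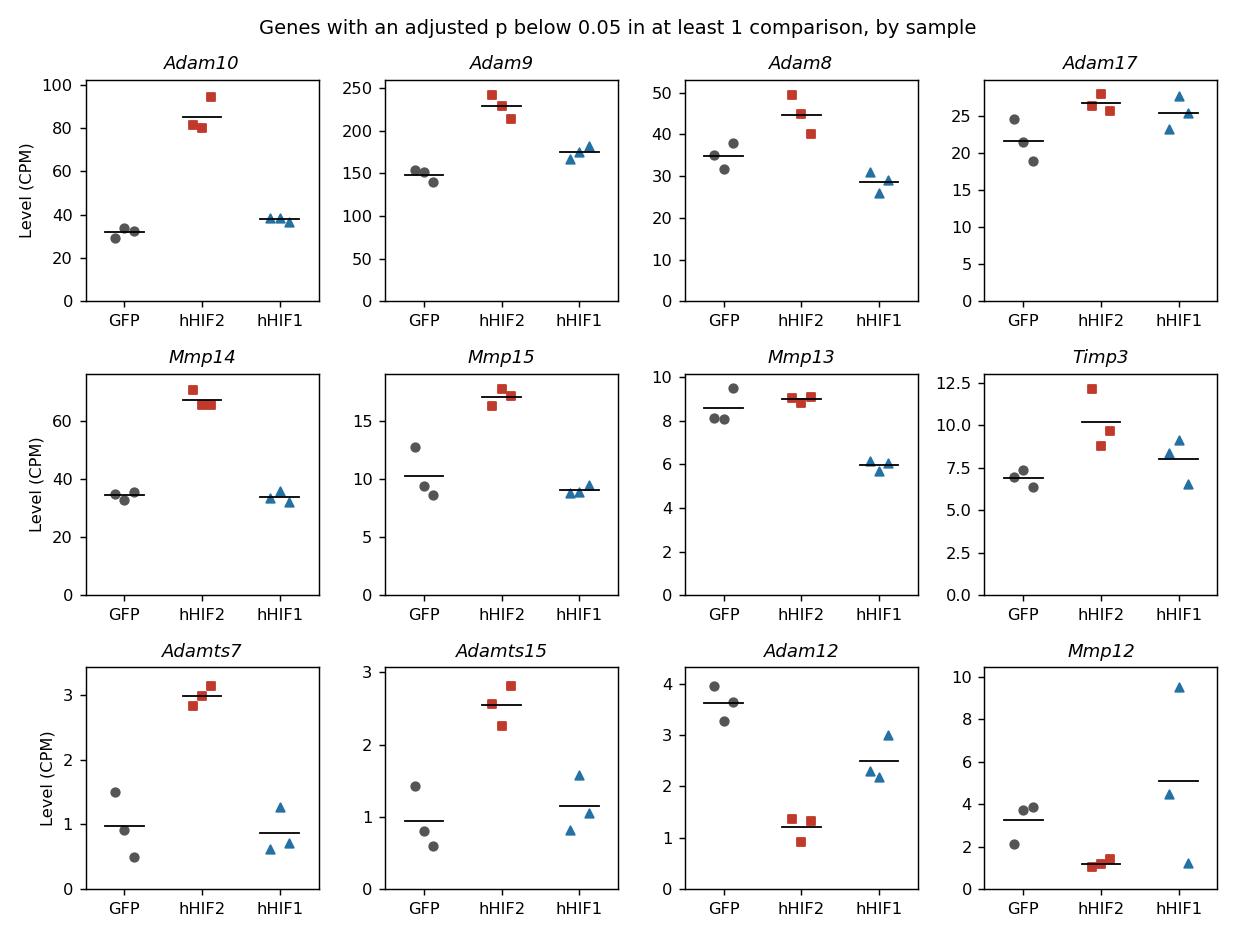
Level of each gene with an adjusted p below 0.05 in at least 1 of the 3 comparisons, in CPM on an axis from 0 (points, samples; lines, means of 3 samples). For Adam10, Adam9, Mmp14, Mmp15, Adamts7 and Adamts15 all 3 Ad-hHIF2 points lie above all others, for Adam12 all 3 lie below, and for Mmp12 Ad-hHIF1 replicate 4 lies among the Ad-hHIF2 points.

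Of the membrane-type MMPs, 2 of 4 tested genes were higher in Ad-hHIF2 organoids at an adjusted p below 0.05, both by less than 2-fold. Mmp14 encodes MT1-MMP, a collagenase of the cell surface that activates the precursor of MMP2, and lies at chr14:54431612-54445364 of GRCm38 on the plus strand. It was at 35, 32.9 and 35.6 CPM in Ad-GFP, 70.9, 65.7 and 65.6 CPM in Ad-hHIF2 and 33.6, 35.8 and 32.3 CPM in Ad-hHIF1 samples. The Ad-hHIF2 samples were well above the other 6, which overlapped. At 1.96-fold (log2 0.97, standard error 0.0701, adjusted p = 3.16e-05, edgeR) Mmp14 lay just under the fold minimum, and its adjusted p was below 0.05 in all 14 alternatives. It was called at 2-fold without the count filter, with limma on either TPM scale and with the receptor covariate. Of the summed MMP level it held 59.0% with HIF2 and 45.3% with HIF1. Mmp15, or MT2-MMP, was at 12.7, 9.37 and 8.65 CPM in Ad-GFP, 16.2, 17.7 and 17.1 CPM in Ad-hHIF2 and 8.79, 8.89 and 9.46 CPM in Ad-hHIF1 samples. Here, too, only the Ad-hHIF2 samples stood apart, at 1.66-fold of Ad-GFP (log2 0.73, standard error 0.143, adjusted p = 0.00591, edgeR). Mmp15 passed in 12 of 14 alternatives, the exceptions being limma on log2(TPM + 1) (adjusted p = 0.0997) and log2(TPM + 0.1) (0.0604). The other membrane-type genes were low, with Mmp24 at log2 -0.89 (standard error 0.349, adjusted p = 0.0879, edgeR) and Mmp17 at 0.50 (adjusted p = 0.470).

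HIF proteins bind DNA at the letters ACGTG or GCGTG, which were searched on both strands (on the other strand as CACGT or CACGC) in the RefSeq promoter windows of GRCm38.p6, from 250 bases before to 50 bases after each gene's start. Of the 79 genes, 49 had a window in that table, 21 of them expressed. Of these 49, 4 had more than 1 window, and a gene was counted when any of its windows held the letters. ACGTG was in 11 of the 49, GCGTG in 19 and either in 23, beside 21.8%, 35.2% and 46.7% of all 27025 genes in the table counted in the same way (19.6%, 32.4% and 43.8% of its 32851 single windows). Among the 21 expressed genes, 3 held ACGTG (Adam10, Mmp14 and Timp1) and 12 held either. The 250 bases before the start are shown for the 3 genes with windows that had the lowest adjusted p-values in Ad-hHIF2 against Ad-GFP, with each match in capitals, all on the plus strand of GRCm38.p6: chr9:70678732-70678981 for Adam10, chr14:54431348-54431597 for Mmp14 and chr8:95352046-95352295 for Mmp15.
Adam10: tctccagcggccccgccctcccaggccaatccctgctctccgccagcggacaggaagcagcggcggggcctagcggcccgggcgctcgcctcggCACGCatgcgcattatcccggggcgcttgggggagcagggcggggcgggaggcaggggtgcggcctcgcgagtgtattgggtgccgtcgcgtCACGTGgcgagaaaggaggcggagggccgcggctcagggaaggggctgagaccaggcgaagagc
Mmp14: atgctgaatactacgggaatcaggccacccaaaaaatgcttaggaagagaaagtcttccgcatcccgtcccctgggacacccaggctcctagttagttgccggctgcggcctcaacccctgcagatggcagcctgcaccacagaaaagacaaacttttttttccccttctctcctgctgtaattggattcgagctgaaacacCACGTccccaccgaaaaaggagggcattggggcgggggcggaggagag
Mmp15: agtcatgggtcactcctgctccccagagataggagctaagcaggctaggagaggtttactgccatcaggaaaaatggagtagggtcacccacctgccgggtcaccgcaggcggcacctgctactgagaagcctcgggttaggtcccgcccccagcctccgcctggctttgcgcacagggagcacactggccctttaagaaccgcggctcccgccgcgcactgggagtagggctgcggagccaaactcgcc
In the Adam10 window the matches begin at positions -156 and -64 counted from the start, the latter being the palindrome CACGTG, in which a CACGT and an ACGTG overlap. In the Mmp14 window a CACGT begins at position -48, and the Mmp15 window holds neither set of letters. Starts here are those of RefSeq. GENCODE starts Mmp15 at chr8:95352268, so that 28 of the 250 bases shown for it lie in GENCODE exons. A match describes the letters and is not a measured binding site. Adam9, Adam12, Adamts7, Adamts15 and Mmp9 had no window in the table.

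Among the other MMPs, the collagenase Mmp13 was at 8.14, 8.07 and 9.5 CPM in Ad-GFP, 9.05, 8.81 and 9.09 CPM in Ad-hHIF2 and 6.17, 5.69 and 6.09 CPM in Ad-hHIF1 samples. Ad-hHIF2 and Ad-GFP overlapped (log2 0.08, adjusted p = 0.625, edgeR), and the Ad-hHIF1 samples were below both. Mmp9, gelatinase B, was at 0.219, 0.194 and 0.10 CPM in Ad-GFP, 0.503, 0.412 and 0.582 CPM in Ad-hHIF2 and 0, 0.131 and 0.179 CPM in Ad-hHIF1 samples. The Ad-hHIF2 values were above all others, but the gene passed the count filter of this comparison only through that group, and the difference did not pass the test (log2 1.47, standard error 0.492, adjusted p = 0.0533, edgeR). Mmp2, gelatinase A, was at log2 -0.89 (standard error 0.569, adjusted p = 0.272, edgeR). Mmp11, stromelysin 3, was at 12.4, 11.0 and 11.5 CPM in Ad-GFP, 13.4, 12.3 and 13.1 CPM in Ad-hHIF2 and 10.8, 12 and 12.3 CPM in Ad-hHIF1 samples. Ad-GFP overlapped both other groups, and Ad-hHIF2 against Ad-GFP did not pass (log2 0.16, adjusted p = 0.244, edgeR). The lowest Ad-hHIF2 value (12.32 CPM) was just above the highest Ad-hHIF1 value (12.27 CPM). The remaining tested MMPs, Mmp19, Mmp23 and Mmp28, ranged from -0.73 to 0.21 and did not pass.

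Mmp12, the macrophage elastase, was at 2.14, 3.74 and 3.88 CPM in Ad-GFP, 1.02, 1.15 and 1.42 CPM in Ad-hHIF2 and 4.46, 9.54 and 1.23 CPM in Ad-hHIF1 samples. Ad-hHIF2 was below Ad-GFP in all samples, and Ad-hHIF1 spread over a wider range than either, with replicate 4 inside the Ad-hHIF2 range. In Ad-hHIF2 organoids Mmp12 fell to 0.372 of the Ad-GFP level (log2 -1.43, standard error 0.302, adjusted p = 0.00849, edgeR). The same order of the 9 samples was found in the reads on olfactory and vomeronasal receptor genes. Those summed to 83.9, 131 and 148 CPM in Ad-GFP, 30.8, 48.5 and 66.6 CPM in Ad-hHIF2 and 153, 452 and 59.3 CPM in Ad-hHIF1 samples. Of 15556 genes tested, 36 (0.231%) ordered the 9 samples exactly as this sum did, and Mmp12 was the 1 member of the 4 families among them. With the receptor sum as a covariate Mmp12 was at log2 -0.14 (adjusted p = 0.789, edgeR). That covariate was chosen after these orders were seen, and the sum itself does not overlap between Ad-hHIF2 and Ad-GFP, so this value is no independent test of Mmp12. Fitted with all 9 samples together, Mmp12 kept its fold but not its call (log2 -1.43, adjusted p = 0.103, edgeR), and it passed in 10 of 14 alternatives in all. Mmp12 also shares part of its reads with other genes in every sample, and the gene it overlaps, Mmp1b, was at 0.

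**Figure D4:**
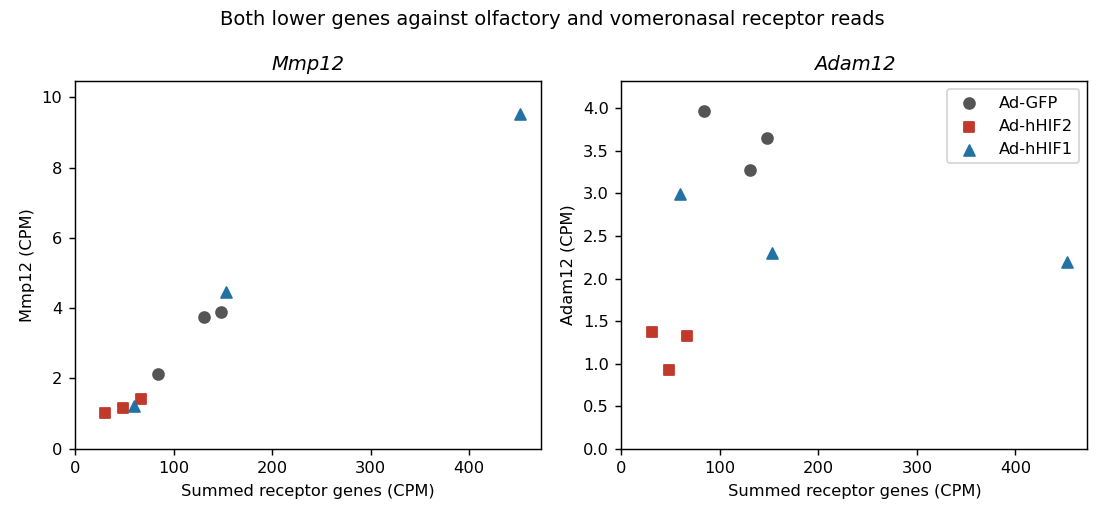
Level of Mmp12 (left) and Adam12 (right) in each of the 9 samples against the summed level of olfactory and vomeronasal receptor genes, all in CPM on linear axes. Mmp12 runs in step with the receptor sum across all 3 groups, up to 9.54 CPM where that sum is 452 CPM, and Adam12 does not, since all Ad-GFP samples lie above all Ad-hHIF1 samples.

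With edgeR, the count filter and no sample left out, no inhibitor was called at 2-fold in any of the 3 comparisons. Timp2, the most abundant, was at 77.2, 75.8 and 70.6 CPM in Ad-GFP, 89.2, 74.7 and 83.7 CPM in Ad-hHIF2 and 75.0, 78.0 and 78.2 CPM in Ad-hHIF1 samples, and the groups overlapped (log2 0.15, standard error 0.0829, adjusted p = 0.206, edgeR). Timp1, which is secreted, was at 5.63, 4.93 and 4.95 CPM in Ad-GFP, 4.62, 3.77 and 3.49 CPM in Ad-hHIF2 and 4.16, 6.04 and 5.60 CPM in Ad-hHIF1 samples. All Ad-hHIF2 values were below all Ad-GFP values, but the difference did not pass (log2 -0.38, standard error 0.164, adjusted p = 0.115, edgeR). Timp3, which binds to the matrix and also inhibits ADAM17 and ADAM10, was at 6.98, 7.34 and 6.38 CPM in Ad-GFP, 12.1, 8.81 and 9.68 CPM in Ad-hHIF2 and 8.39, 9.15 and 6.57 CPM in Ad-hHIF1 samples. Its Ad-hHIF2 values were above the Ad-GFP values, by 1.48-fold (log2 0.56, standard error 0.138, adjusted p = 0.0157, edgeR), and overlapped Ad-hHIF1. The adjusted p rose above 0.05 without Ad-hHIF2 replicate 1, the highest sample (adjusted p = 0.0540, edgeR), and with limma on log2(TPM + 1) (0.108) and log2(TPM + 0.1) (0.152). Timp3 overlaps Syn3 on the other strand and shares reads in part of the samples. Timp4 stayed below the filter, at no more than 11 counts in a sample and at 0 in all Ad-hHIF2 samples. At these counts the direct test between the HIFs called it lower with HIF2 by DESeq2 (adjusted p = 0.0120), by edgeR without the count filter (0.0206) and by edgeR when it passed the filter without Ad-GFP replicate 4 (0.0392) or Ad-hHIF1 replicate 1 (0.0475). In the fits with a sample left out it passed the filter only through Ad-hHIF1 samples, where it was highest. Set against 0 counts in Ad-hHIF2, these calls decide nothing about Timp4.

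The same question was asked of HIF1. Of 33 genes tested in Ad-hHIF1 against Ad-GFP, none was called, with or without the fold minimum, and neither was any of all 15233 genes tested (0%). Over all genes this 0 depended on the count filter, since edgeR without it called 100 genes higher and 38 lower, none of them in the 4 families. DESeq2 called 1 gene and the fit of all 9 samples 2, again none of the 4 families. The study itself, with the EBSeq package, reported a small set of genes that differed between these groups. Limma on log2(TPM + 1) and log2(TPM + 0.1) called none of the 33, and DESeq2 called none of the 6 to which it gave an adjusted p. Unadjusted, edgeR gave 5 of the 33 a p below 0.05, beside 8.59% of all genes, and this number was 5 with DESeq2 and 4 and 3 with limma. Those 5 were Mmp13 (log2 -0.51, standard error 0.135, adjusted p = 0.490, edgeR), Adam10 (log2 0.24, adjusted p = 0.509), Adam9 (log2 0.23, adjusted p = 0.517), Adam8 (log2 -0.29, adjusted p = 0.518) and Adam12 (log2 -0.53, adjusted p = 0.581). The same 5 were the genes whose Ad-hHIF1 and Ad-GFP samples did not overlap, 2 of 33 above (8.37% of all genes) and 3 below (9.02%). The log2 fold changes and standard errors of the others included -0.03 (0.0745) for Mmp14, -0.18 (0.161) for Mmp15, 0.02 (0.190) for Timp1, 0.05 (0.0696) for Timp2 and 0.21 (0.159) for Timp3. The median over the 33 genes was -0.01, beside 0.00 for all genes.

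A change past the threshold with HIF2 and not with HIF1 does not by itself show a difference, so Ad-hHIF2 and Ad-hHIF1 organoids were compared directly, in a fit of all 9 samples with 15556 genes. Adam10, Adamts7 and Adamts15 were called higher with HIF2 (3 of 35, beside 2.42% of all genes) and Adam12 and Mmp12 lower (2 of 35, beside 3.7%), which makes 5 of 35 beside 6.11% in either direction. Unadjusted, 12 of 35 had a p below 0.05 (37.4% of all genes). Among them was Mmp9, which passed the count filter of this fit only through its Ad-hHIF2 samples. This comparison shares the Ad-hHIF2 samples with the one against Ad-GFP. The amounts of HIF2 and HIF1 protein were not compared here, so the factor and its dose cannot be told apart in these differences. Adam10 was 2.25-fold higher (log2 1.17, standard error 0.0846, adjusted p = 6.56e-06, edgeR) and Adamts7 was 3.50-fold higher (log2 1.81, standard error 0.408, adjusted p = 0.00911, edgeR). Both kept an adjusted p below 0.05 in all 17 alternatives, at less than 2-fold for Adam10 with limma on log2(TPM + 1) (log2 0.94) and for Adamts7 on both TPM scales (log2 0.13 and 0.82). Adamts15 was 2.24-fold higher (log2 1.16, standard error 0.369, adjusted p = 0.0423, edgeR) but lost the call in 6 of the 9 fits with 1 sample left out, which were those without Ad-GFP replicate 3, any Ad-hHIF2 replicate, or Ad-hHIF1 replicate 1 or 4 (adjusted p-values up to 0.141). It also lost it with the receptor covariate (adjusted p = 0.124, edgeR), and passed the adjusted p in 7 of 17 alternatives. Adam12 was at 0.481 of the Ad-hHIF1 level (log2 -1.06, standard error 0.247, adjusted p = 0.0110, edgeR), and came to less than 2-fold without Ad-hHIF2 replicate 3 (log2 -0.91) or Ad-hHIF1 replicate 4 (log2 -0.89). Mmp12 had a log2 difference of -2.06 (standard error 0.590, adjusted p = 0.0273, edgeR) although the groups overlapped. Without Ad-hHIF1 replicate 3, the sample with most receptor reads, it was -1.25 (adjusted p = 0.0960), and the call was also lost without Ad-hHIF1 replicate 1 (0.0515) or any Ad-hHIF2 replicate (0.0654 to 0.0969). With the receptor covariate, chosen after the sample orders were seen, Mmp12 was at log2 0.00 (adjusted p = 0.995, edgeR). It passed the adjusted p in 8 of 17 alternatives.

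By adjusted p alone, 8 of 35 genes were higher with HIF2 than with HIF1 (13.7% of all genes) and 2 lower (12%). The 5 genes that this added were Mmp14 (1.99-fold, log2 0.99, adjusted p = 5.14e-06), Mmp15 (1.88-fold, log2 0.91, adjusted p = 0.000774), Adam8 (1.56-fold, log2 0.65, adjusted p = 0.00117), Mmp13 (1.5-fold, log2 0.58, adjusted p = 0.00311) and Adam9 (1.31-fold, log2 0.39, adjusted p = 0.00431), all by edgeR. With limma on log2(TPM + 1) and log2(TPM + 0.1) the threshold was passed by Mmp14 but not by Mmp15 (adjusted p = 0.0772 and 0.0607), Adam8 (0.169 and 0.132), Mmp13 (0.211 and 0.172) or Adam9 (0.243 and 0.219), and Adam9 also lost it with the receptor covariate (0.0800, edgeR). Adam8 and Mmp13 were lowest in Ad-hHIF1 organoids, so their difference from Ad-hHIF2 was larger than that between Ad-hHIF2 and Ad-GFP. Adam17 (log2 0.07, standard error 0.102, adjusted p = 0.659) and Timp3 (log2 0.35, standard error 0.158, adjusted p = 0.135), which had passed against Ad-GFP, were not past the test between the HIFs. Timp1 and Timp2 had log2 differences of -0.41 and 0.10. All Ad-hHIF2 samples were above all Ad-hHIF1 samples for 12 of 35 genes (22.7% of all genes) and below them for 1, Adam12 (19.1% of all genes). The 12 include Mmp9, which passed the count filter of this fit only through its Ad-hHIF2 samples. The median log2 difference was 0.13, beside -0.01 for all genes.

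Metalloproteases depend on partners that activate, traffic or restrain them, and 33 such genes were listed, with 32 in the files. The list was chosen with earlier results of these data known, so its share of called genes is no independent test. Of 21 tested in Ad-hHIF2 against Ad-GFP, 5 were called higher (2.9% of all genes) and 1 lower (3.83%), with a median log2 fold change of 0.27 beside -0.01 for all genes. Plat, the tissue plasminogen activator, which starts a protease cascade that can activate MMP precursors, was higher (120 to 325 CPM, log2 1.44). Plaur, the receptor of the urokinase activator, was lower (61.4 to 30.4 CPM, log2 -1.01). Mep1a, a brush border metalloprotease of the astacin group, rose at a low level (0.268 to 1.35 CPM, log2 2.29), and so did Tspan33, a tetraspanin that steers ADAM10 to its sites in the membrane (0.812 to 3.01 CPM, log2 1.94). The other tetraspanins of the list that were tested were not called. Tspan15 was higher by adjusted p alone (14.8 to 23.1 CPM, log2 0.65), and Tspan17 (log2 0.57), Tspan5 (log2 -0.08) and Tspan14 (log2 -0.33) did not pass. Pcsk6, a proprotein convertase of the furin family, which removes the inhibitory propeptides of such enzymes, went from 24.0 to 60.2 CPM (log2 1.33). By adjusted p alone 8 of the 21 were higher (15.9% of all genes) and 3 lower (13.6%). In Ad-hHIF1 against Ad-GFP, 0 of 21 were called in either direction, and between the HIFs the same 6 genes were called, 5 higher and 1 lower with HIF2 of 22 tested, beside 2.42% and 3.7% of all genes.

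A second list, chosen with the same knowledge of earlier results, held 33 proteins that these enzymes shed or cut. Of these, 30 were tested in Ad-hHIF2 against Ad-GFP. There 6 were called higher (2.9% of all genes) and 1 lower (3.83%), with a median of 0.22 beside -0.01 for all genes. The proteoglycans Acan (233 to 747 CPM, log2 1.68) and Vcan (3.09 to 8.73 CPM, log2 1.49), both substrates of ADAMTS enzymes, were higher. Tgfa, an EGF receptor ligand released by ADAM17, went from 30.0 to 82.2 CPM (log2 1.46), and Cx3cl1, a membrane-bound chemokine shed by ADAM10 and ADAM17, from 23.0 to 63.3 CPM (log2 1.46). Met, the receptor of hepatocyte growth factor (77.8 to 173 CPM, log2 1.16), and Fn1, fibronectin (847 to 1830 CPM, log2 1.12), rose as well. Jag1, a Notch ligand, was the 1 gene of the list called lower, from 120.0 to 34.3 CPM (log2 -1.80, standard error 0.0667, adjusted p = 6.51e-07, edgeR). By adjusted p alone 15 of the 30 were higher (15.9% of all genes) and 2 lower (13.6%). The higher genes this added were Il6ra, Ereg, Thbs1, Sdc4, Cdh1, Notch2, Cxcl16, Dll1 and Erbb2, with log2 fold changes from 0.89 for Il6ra to 0.22 for Erbb2, and the lower was Cd44, a receptor for hyaluronan (log2 -0.31). None of 31 was called with HIF1, and 8 of 30 were called higher (2.42% of all genes) and 1 lower (3.7%) with HIF2 than with HIF1, Il6ra (log2 1.52) and Thbs1 (log2 1.09) being those not called against Ad-GFP.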

How the data were processed

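RNA of 9 duodenal organoid cultures was sequenced in 3 groups of 3, assigned from the sample labels. The authors removed low-quality reads and estimated abundances with RSEM; the aligner, build, annotation and strandedness are not given in the sources used here. The expected counts are estimated counts as deposited, not normalized, and 85.7% of them are whole numbers. The deposited TPM were used in alternatives, and the deposited FPKM only to inspect them. Expected counts were rounded, filtered with filterByExpr (minimum 10), scaled by TMM and tested with edgeR 4.0.16 (limma 3.58.1, R 4.3.3), with Benjamini-Hochberg adjustment over all genes. The fits against Ad-GFP held the 6 samples of the groups compared, and that between the HIFs all 9, without covariates. A standard error is the log2 fold change divided by the root of its F statistic. An exact permutation test of 3 against 3 samples cannot go below p = 0.1. Positions are those of GENCODE M21 (GRCm38), matched by gene identifier, and promoters those of RefSeq (GRCm38.p6).

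The genes, lists and alternatives were chosen with earlier results of these data known. Values by sample are given for every gene with an adjusted p below 0.05, every Timp and the 10 with the highest Ad-GFP TPM; Mmp9, Adamts1 and others outside this rule were named after their values were seen, as examples of their role group. Alternatives were median-ratio scaling, no filter, DESeq2 1.42.0, limma on log2(TPM + 1) and log2(TPM + 0.1), another choice of samples, a replicate block, no fold minimum and leaving out each sample; a receptor-read covariate was added later. Python 3.11.15 and matplotlib 3.10.9 were used for tables and figures.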

Additional observations from a re-analysis of the deposited data

How the results depend on the processing

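Of the 17 genes given by sample under the naming rule, 16 were tested under the alternatives. None of these 16 changed direction past a threshold, and 650 of their values kept their side of it while 60 lost it. Timp4, which stayed below the count filter unless a sample was left out, was called between the HIFs in 4 alternatives, Adamts18 in 1 and Mmp25 in 1. In Ad-hHIF2 against Ad-GFP there were 3 higher and 2 lower genes; without the fold minimum 9 were higher, and the lower genes came to 0 with limma on log2(TPM + 1), 0 on log2(TPM + 0.1), 1 in a fit of all 9 samples and 1 with the receptor covariate. With each sample left out in turn, 2 to 3 were higher and 2 lower. In Ad-hHIF2 against Ad-hHIF1, 3 were higher and 2 lower; the higher genes came to 0 with limma on log2(TPM + 1) and 8 without the fold minimum, and the lower genes to 4 with DESeq2, 0 and 0 with limma on either TPM scale and 1 with the receptor covariate. With each sample left out in turn, 2 to 4 were higher and 0 to 3 lower. On both TPM scales Adamts7 and Adamts15 were not called in either comparison. A pseudocount compresses the log2 fold changes of genes as low as these, Adam12 and Mmp12, but why calls were lost was not tested. TPM also moved the median log2 fold change of all genes from -0.012 to 0.124 (log2(TPM + 1)) or 0.302 (log2(TPM + 0.1)) in Ad-hHIF2 against Ad-GFP, to 0.045 or 0.131 in Ad-hHIF1 against Ad-GFP and to 0.063 or 0.172 between the HIFs. All calls in Ad-hHIF2 against Ad-GFP, higher and lower, were then 196 and 41, or 644 and 126, in place of 435 and 574. In Ad-hHIF1 against Ad-GFP they were 100 and 38 without the count filter, in place of 0 and 0. Relative to that shift, Adam12 was lower on both scales without a call.

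Same-numbered samples did not deviate together in every pair. Correlations were 0.07 to 0.134 for Ad-hHIF2 and Ad-GFP, -0.091 to 0.097 for Ad-hHIF1 and Ad-GFP, and -0.194 to -0.067 between the HIFs. With 3 samples in a group, these values cannot decide whether same-numbered samples share a source. With the replicate block, Ad-hHIF2 against Ad-GFP gave 3 higher and 2 lower genes, with 0 and 0 in Ad-hHIF1 against Ad-GFP, and 2 and 1 between the HIFs, where Adamts15 (adjusted p = 0.0764, edgeR) and Mmp12 (0.0553) lost the call.

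Adamts7, Adamts15, Mmp9 and the other genes near 1 CPM rest on few counts per sample, and depth limits how small a change is detectable in them.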

Other observations

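The 44 genes below the filter were not spread evenly over the samples. Of the 43 with any count, 19 had their highest level in Ad-hHIF1 replicate 3, against 0 to 7 in each of the other samples, and their summed level there was 9.04 CPM, against 1.53 to 3.90 CPM elsewhere. The same sample had the highest sum of olfactory and vomeronasal receptor reads (452 CPM). The sums in Ad-hHIF2 samples, at 1.53 to 1.94 CPM, were below those of all other samples, as their receptor reads were below those of all Ad-GFP samples. The 10 testis germ line markers summed to 0.082 to 0.963 CPM, with Prm2, Tnp1, Tnp2 and Akap4 at 0 in every sample. What these reads come from was not tested.

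The genes below the filter were Adam1b, Adam2, Adam3, Adam5, Adam6a, Adam6b, Adam7, Adam18, Adam19, Adam20, Adam21, Adam23, Adam24, Adam25, Adam26a, Adam26b, Adam29, Adam30, Adam32, Adam33, Adam34, Adam39, Adamts3, Adamts5, Adamts8, Adamts12, Adamts13, Adamts16, Adamts17, Adamts18, Adamts19, Adamts20, Mmp1a, Mmp1b, Mmp3, Mmp7, Mmp8, Mmp10, Mmp16, Mmp20, Mmp21, Mmp25, Mmp27 and Timp4. Adamts12 had the highest count among them, 28 in a sample, followed by Adam1b with 23 and Adam23 with 20.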
